A study of Mus musculus with 34 samples.

Results

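Genes of the contractile and stress fibre apparatus, most of them known targets of serum response factor (SRF) or of the YAP and TEAD proteins, were followed across cultures of the osteosarcoma line MOSJ-Dkk1. The set held 38 mouse gene symbols, chosen by name for their known role in these programmes, of which 35 had a row among the 16576 genes of the culture table. Cnn1, Myl9 and Lats2 were not analysed in the cultures. All 35 passed the filter on low values. The programme itself was selected on the measured difference between DkkMo and scrMo in log phase, which was in view when the set was proposed, so that comparison is described here without a test. Other comparisons that use the log-phase DkkMo or scrMo libraries draw on the same values, so the direction of their changes is not independent of that choice.

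The study asked whether blocking Dkk-1, a secreted inhibitor of Wnt signalling, alters the growth and stress response of osteosarcoma cells. MOSJ-Dkk1 is a mouse osteochondral sarcoma line, labelled with red fluorescent protein, that carries a lentiviral cassette expressing human Dkk-1 from the cytomegalovirus promoter in every group, including the untreated ones. Cultures had no morpholino (NT), 5 µM of a morpholino against human Dkk-1 (DkkMo) or 5 µM of a scrambled morpholino (scrMo), each with 3 libraries. Log-phase cultures were harvested in exponential growth after 6 days, and nutritional stress meant 48 h of confluence with no new medium for 4 days. Tumours of the same cells in NU/J nude mice, which lack mature T cells, grown in the hindlimb of animals about 2 months old at injection, came from animals given no agent (NT), DkkMo, doxorubicin (DRB), or DRB with DkkMo (Combination), with 4 formaldehyde-fixed tumours each. Whether the 3 culture libraries of a group came from separate flasks was not stated, so p-values measure the spread between these libraries, which may be technical.

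SRF is a transcription factor that binds the CArG box. Its cofactors of the MRTF family are held in the cytoplasm by monomeric actin and enter the nucleus when actin polymerises, so that genes for actins, tropomyosins, calponins and adhesion proteins are raised as the cytoskeleton is built. YAP and its paralogue TAZ (Wwtr1) respond to cell spreading, tension and density through the Hippo kinases, and act through TEAD factors on genes such as Ccn1, Ccn2 and Ankrd1. In mesenchymal cells, smooth muscle actin in stress fibres is a common mark of a contractile state.

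RefSeq promoter windows of GRCm38.p6 were found for 31 of the 38 genes, and the 250 bases upstream of each start were searched on both strands for the CArG box and for GGAATG, the core of the TEAD motif. A CArG box was present in 8 of the 31 genes (25.8%), namely Myl9, Actg1, Cnn2, Vcl, Fhl1, Fhl2, Filip1l and Srf, against 1.62% of 27025 genes with a window. GGAATG was present in 13 of 31 (41.9%), among them Acta2, Tpm1, Vcl, Ccn1, Ankrd1, Amotl2 and Ajuba, against 14.4% of all genes. These genes were listed as known targets, so the higher shares describe the list and are no finding of the sequencing. The starts are those of RefSeq. In Acta2, Tpm1, Tagln2, Ankrd1 and Amotl2 no GGAATG match lay in the longest stretch free of GENCODE exons. Cnn2, Vcl and Filip1l carried the same CArG letters, CCTTATAAGG, a CArG box that reads the same on both strands and that 14 of the 27025 genes (0.0518%) held in this window. These letters were picked as the ones that the most members held, so nothing is read from that share. The upstream bases that no annotated transcript covers are shown for these 3 genes, for Actg1 and Srf as members with other CArG letters, and for Ccn1 as a YAP target with the TEAD core, read 5′ to 3′ on the strand of the gene. The windows were chr10:79988350-79988583 (plus strand), chr14:20929148-20929397 (plus), chr16:57548992-57549241 (plus, an internal start of the gene), chr11:120348543-120348677 (minus), chr17:46556176-46556412 (minus) and chr3:145649986-145650235 (minus). Capitals mark CArG boxes and, in Vcl and Ccn1, the GGAATG core, which in Ccn1 reads CATTCC because it lies on the opposite strand.
Cnn2: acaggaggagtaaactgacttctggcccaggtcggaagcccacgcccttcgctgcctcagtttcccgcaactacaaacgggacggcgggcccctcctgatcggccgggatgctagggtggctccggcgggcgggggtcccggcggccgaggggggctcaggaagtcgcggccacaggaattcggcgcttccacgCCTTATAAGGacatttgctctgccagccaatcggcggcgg
Vcl: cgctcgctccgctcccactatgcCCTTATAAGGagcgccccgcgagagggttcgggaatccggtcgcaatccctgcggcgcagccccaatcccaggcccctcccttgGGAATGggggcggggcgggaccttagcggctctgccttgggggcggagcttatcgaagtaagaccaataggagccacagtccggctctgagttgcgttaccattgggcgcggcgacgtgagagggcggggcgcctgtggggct
Filip1l: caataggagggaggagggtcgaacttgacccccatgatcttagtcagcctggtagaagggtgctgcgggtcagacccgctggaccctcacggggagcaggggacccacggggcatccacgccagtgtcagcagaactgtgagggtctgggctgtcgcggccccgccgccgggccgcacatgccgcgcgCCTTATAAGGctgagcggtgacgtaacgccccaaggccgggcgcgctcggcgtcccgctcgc
Actg1: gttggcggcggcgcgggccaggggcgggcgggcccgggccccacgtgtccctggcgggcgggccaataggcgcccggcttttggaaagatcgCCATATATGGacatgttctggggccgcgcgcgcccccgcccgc
Srf: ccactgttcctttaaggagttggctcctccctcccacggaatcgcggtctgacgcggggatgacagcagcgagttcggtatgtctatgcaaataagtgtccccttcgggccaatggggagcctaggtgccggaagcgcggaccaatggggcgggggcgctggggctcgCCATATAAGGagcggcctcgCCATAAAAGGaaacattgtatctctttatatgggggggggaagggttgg
Ccn1: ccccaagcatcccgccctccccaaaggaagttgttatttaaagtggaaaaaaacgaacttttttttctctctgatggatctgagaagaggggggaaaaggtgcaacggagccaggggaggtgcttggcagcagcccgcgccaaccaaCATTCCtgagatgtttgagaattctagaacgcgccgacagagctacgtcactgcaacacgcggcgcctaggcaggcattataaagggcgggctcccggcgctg

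The culture libraries held 25.9 to 44.8 megareads on listed genes and the tumours 26.9 to 125 megareads. Within each culture group the rank correlation between libraries was 0.992 or higher. In tumours it fell to 0.249 among the NT tumours. The sequenced reads do not check the morpholino itself, since its target is the human transcript. Of 10 osteoblast markers, 7 were measured in the cultures, with Sp7, Ibsp and Dmp1 not analysed here. They summed to 246498 to 278423 normalized counts in log-phase NT, 119057 to 159208 with scrMo and 191063 to 225688 with DkkMo, and their part in the differences between groups was not tested. The 2 mitochondrial ribosomal RNAs, mt-Rnr1 and mt-Rnr2, summed to 22682 to 26128 normalized counts in log-phase NT, 41308 to 43189 with DkkMo and 90231 to 123751 with scrMo. Under stress the same sums were 24857 to 28584, 46957 to 55631 and 539803 to 641025. The scrMo libraries therefore stood apart from both other groups in this measure, and its part in any comparison with scrMo was not tested. Of 9 smooth muscle and pericyte markers outside the set, 5 were measured (Des, Lmod1, Smtn, Cspg4 and Notch3), and Myh11, Myocd, Rgs5 and Kcnmb1 were not analysed here. Des, Lmod1 and Smtn are also known SRF targets and stand in the list of further contractile genes used later. The 5 summed to 5204 to 5539 in log-phase NT, 4170.4 to 5754 with scrMo, 6281 to 7456 with DkkMo, and 3225 to 3325, 2876 to 3085 and 2950.3 to 3170.4 under stress in the same order. In log phase the mean of this sum ranked the treatments as the summed smooth-muscle-type genes of the set did, highest with DkkMo and lowest with scrMo. Both were lower under stress, where the order differed. With stressed scrMo this sum had its lowest mean and those genes their highest. Its part in the results below was not tested.

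In log-phase NT cultures the cytoplasmic actins stood far above the smooth-muscle-type actins. Per kilobase of exon, Actb and Actg1, the cytoplasmic actins, had mean levels of 18535 ± 346 and 9937 ± 255 normalized counts (SD, n = 3) in log-phase NT cultures. Ccn1, a secreted matricellular protein and YAP target, followed at 6636 ± 764. Acta2, smooth muscle alpha actin, stood at 454 ± 114 and Actg2, enteric smooth muscle actin, at 137 ± 30.2. The lowest of the 35 were Tagln, transgelin, at 24.0 ± 4.53 and Fhl1, a LIM-domain protein, at 23.6 ± 5.91, which differed by less than their spread. Of the possible 150-base reads from Tagln exons, 40.2% also occur in Gm48529, and how such reads were counted is not given in the sources used here. The share was 24.2% for Vcl (with Ap3m1) and 23.3% for Actg1 (with Gm12715), and no 150-base stretch of Acta2, Actg2, Cnn2 or Thbs1 was shared.

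In log phase, DkkMo cultures had the most smooth muscle actin. In log phase, normalized counts of Acta2 (chr19:34241090-34255590, GRCm38, minus strand) were 1286, 836 and 866 in the NT libraries, 679, 269 and 383 with scrMo and 3465, 3849 and 2934 with DkkMo. Under nutritional stress they were 17.5, 24.9 and 21.8 in the NT libraries, 52.2, 50.4 and 59.3 with scrMo and 70.0, 55.1 and 64.0 with DkkMo. No library of one log-phase group overlapped another, and every stressed library lay below every log-phase library. Against NT, the log2 fold change with DkkMo was 1.55 ± 0.15 (SE, adjusted p = 2.93e-06) and with scrMo -0.88 ± 0.15 (SE, adjusted p = 3.06e-04), by limma across all 16562 genes tested. Both treatments carry a morpholino, and Acta2 differed from the same NT libraries in opposite directions. The choice of the set on the DkkMo-scrMo difference favours opposite directions, so this is a description. The mean with DkkMo was 7.70 times that with scrMo in normalized counts, 2.43 on the deposited log2 scale, which compresses low counts.

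Actg2, on another chromosome (chr6:83512905-83536265), showed the rise and not the fall. In log phase, normalized counts of Actg2 were 267, 180.1 and 193 in the NT libraries, 206, 149 and 145 with scrMo and 579.9, 533 and 505 with DkkMo. Under nutritional stress they were 43.7, 51.8 and 51.2 in the NT libraries, 53.5, 54.1 and 53.5 with scrMo and 75.1, 79.7 and 72.2 with DkkMo. All log-phase DkkMo libraries lay above all others, while scrMo overlapped NT. The change with DkkMo against NT was 0.82 ± 0.07 (SE, adjusted p = 8.75e-07) and with scrMo -0.17 ± 0.07 (SE, adjusted p = 0.0763). The log-phase DkkMo and scrMo libraries were in view when the set was chosen, so these values are a description. Of the other smooth-muscle-type members, neither Tagln, the tropomyosins Tpm1 and Tpm2, nor caldesmon (Cald1) was called in either comparison with NT, where called means an adjusted p under 0.05 and a change over 1.5-fold. Tagln ranged only from 37.3 to 78.5 normalized counts over the 9 log-phase libraries.

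**Figure D1:**
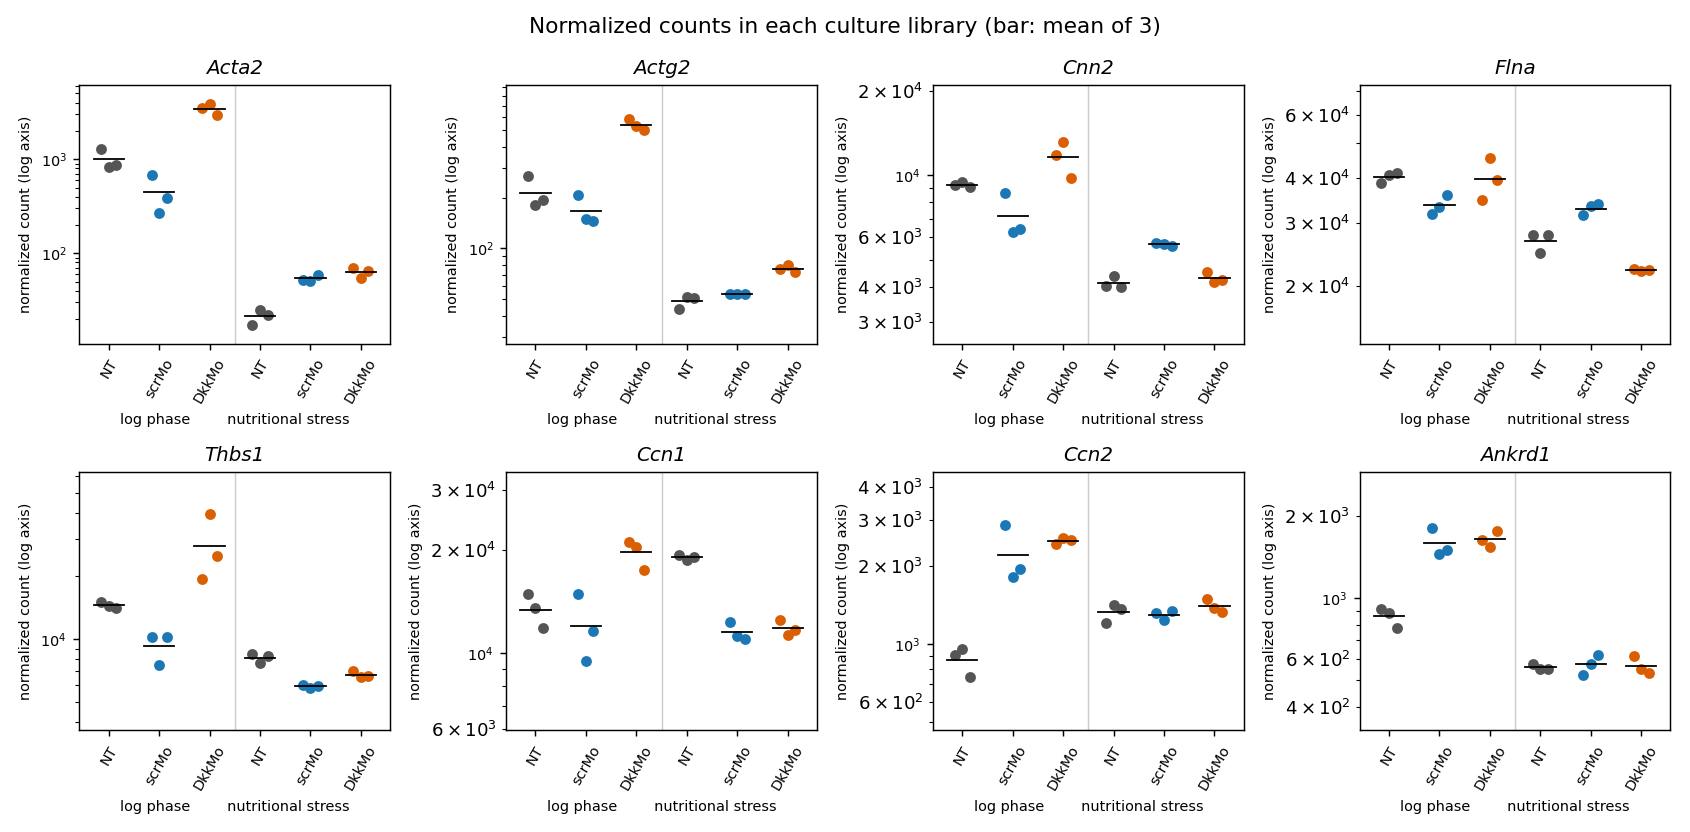
Normalized counts of 8 members in each of the 18 culture libraries, on a log axis, with NT in grey, scrMo in blue and DkkMo in orange, log phase on the left of each panel and nutritional stress on the right, and a bar at the mean of 3. Acta2, Actg2 and Thbs1 are highest in the log-phase DkkMo libraries, whereas Ccn2 and Ankrd1 are raised in log phase with either morpholino.

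Among the YAP targets, Ccn2 and Ankrd1 were higher with both morpholinos. In log phase, normalized counts of Ccn2 were 907, 956 and 745 in the NT libraries, 2867, 1810.1 and 1936 with scrMo and 2417, 2557 and 2512 with DkkMo. Under nutritional stress they were 1202, 1413 and 1363 in the NT libraries, 1311, 1234 and 1334 with scrMo and 1488, 1376 and 1332 with DkkMo. All 6 morpholino-treated libraries in log phase lay above all 3 NT libraries, and the scrMo and DkkMo libraries overlapped. Ccn2, connective tissue growth factor, rose by 1.10 ± 0.11 (SE, adjusted p = 4.78e-07) with scrMo and by 1.29 ± 0.11 (SE, adjusted p = 5.17e-07) with DkkMo. In log phase, normalized counts of Ankrd1 were 915, 882 and 775 in the NT libraries, 1810.3, 1452 and 1503 with scrMo and 1631, 1536 and 1763 with DkkMo. Under nutritional stress they were 574, 549 and 552 in the NT libraries, 524, 573 and 619 with scrMo and 612, 548 and 531 with DkkMo. Ankrd1, a muscle ankyrin repeat protein, rose by 0.72 ± 0.07 (SE, adjusted p = 5.60e-07) with scrMo and 0.77 ± 0.07 (SE, adjusted p = 1.59e-06) with DkkMo. Both comparisons share the NT libraries, and the log-phase DkkMo and scrMo libraries were in view when the set was chosen.

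Thbs1, which encodes thrombospondin 1, differed from NT in opposite directions with the 2 morpholinos, as Acta2 did. A set chosen with the DkkMo-scrMo difference in view favours such directions, so nothing is read from them. In log phase, normalized counts of Thbs1 were 14986, 14328 and 14107 in the NT libraries, 10177, 7495 and 10247 with scrMo and 19452, 39390.1 and 24941 with DkkMo. Under nutritional stress they were 8439.6, 7690.0 and 8271 in the NT libraries, 6053, 5845 and 5973 with scrMo and 7012, 6593 and 6640.1 with DkkMo. The log-phase DkkMo libraries spread widely, but none overlapped NT or scrMo. Against NT, Thbs1 rose by 0.87 ± 0.16 (SE, adjusted p = 0.00136) with DkkMo and changed by -0.63 ± 0.16 (SE, adjusted p = 0.00597) with scrMo, a call that was lost without the second scrMo library. In log phase, normalized counts of Ccn1 were 14890.5, 13493 and 11808 in the NT libraries, 14855, 9503 and 11558 with scrMo and 21149, 20387 and 17528 with DkkMo. Under nutritional stress they were 19388, 18697 and 19102 in the NT libraries, 12300.2, 11182 and 10959 with scrMo and 12459.8, 11277 and 11699 with DkkMo. For Ccn1 the 3 log-phase DkkMo libraries were the highest in log phase, and the differences from NT, 0.55 ± 0.11 (SE, adjusted p = 0.00404) with DkkMo and -0.18 ± 0.11 (SE, adjusted p = 0.279) with scrMo, were not called. Amotl2, an angiomotin-family binding partner of YAP, had 4853, 5126 and 4637 normalized counts in NT, 5118, 4245 and 4358 with scrMo and 6865, 7675 and 6508 with DkkMo. Ajuba, a LIM protein that inhibits the Hippo kinases, had 1489.8, 1514 and 1301 in NT, 1966, 1752 and 1765 with scrMo and 2182, 1976 and 1963 with DkkMo. Neither was called against NT, with changes of 0.50 ± 0.07 (SE, adjusted p = 1.45e-04) for Amotl2 and 0.44 ± 0.06 (SE, adjusted p = 5.58e-05) for Ajuba with DkkMo, both short of 1.5-fold.

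With these libraries, which were in view when the set was chosen, 5 of 35 members were called higher and none lower with DkkMo against NT in log phase, where 0.827% of all genes were called and 0.513% called higher. They were Acta2, Actg2, Ccn2, Ankrd1 and Thbs1, and 13 members had an adjusted p under 0.05, all higher, against 5.36% of all genes. With scrMo against NT, 2 were called higher (Ccn2 and Ankrd1) and 2 lower (Acta2 and Thbs1), against 0.592% and 1.85% of all genes and 2.45% in either direction. The median log2 fold change of the 35 was 0.20 with DkkMo and -0.095 with scrMo, beside 0.0053 and -0.0014 over all genes.

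None of the 19 stress fibre genes was called against NT in log phase. Actb had 48709.5, 49692 and 50565 normalized counts in NT, 54809, 42427 and 44561 with scrMo and 58172, 63649 and 51002 with DkkMo. Actg1 had 25663, 26586 and 26986 in NT, 31043, 24866 and 26642 with scrMo and 32599.6, 35698 and 29779 with DkkMo. For both, the scrMo libraries overlapped those of the other groups. Cnn2, calponin 2, had 9271, 9455 and 9075 in NT, 8639, 6296 and 6445 with scrMo and 11822, 13154 and 9815 with DkkMo, with no overlap between groups and changes against NT of 0.31 ± 0.10 (SE) with DkkMo and -0.38 ± 0.10 (SE) with scrMo. None of the 4 regulators was called. Yap1 had 3166, 3084 and 3104 in NT, 2907, 3111 and 3246 with scrMo and 3011, 3175 and 3103 with DkkMo. Srf had 1442, 1378 and 1296 in NT, 1585, 1463 and 1459 with scrMo and 1480.3, 1509 and 1346 with DkkMo, and the DkkMo libraries overlapped both other groups. Tead1, a TEAD factor, had 5247, 5355 and 5501 in NT, 3926, 4741 and 5083 with scrMo and 3925, 4743 and 5079 with DkkMo, and NT lay above both. Wwtr1 had 6154, 6176 and 6385 in NT, 5625, 6060.4 and 7196 with scrMo and 5339, 5714 and 6279 with DkkMo, and its groups overlapped.

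**Figure D2:**
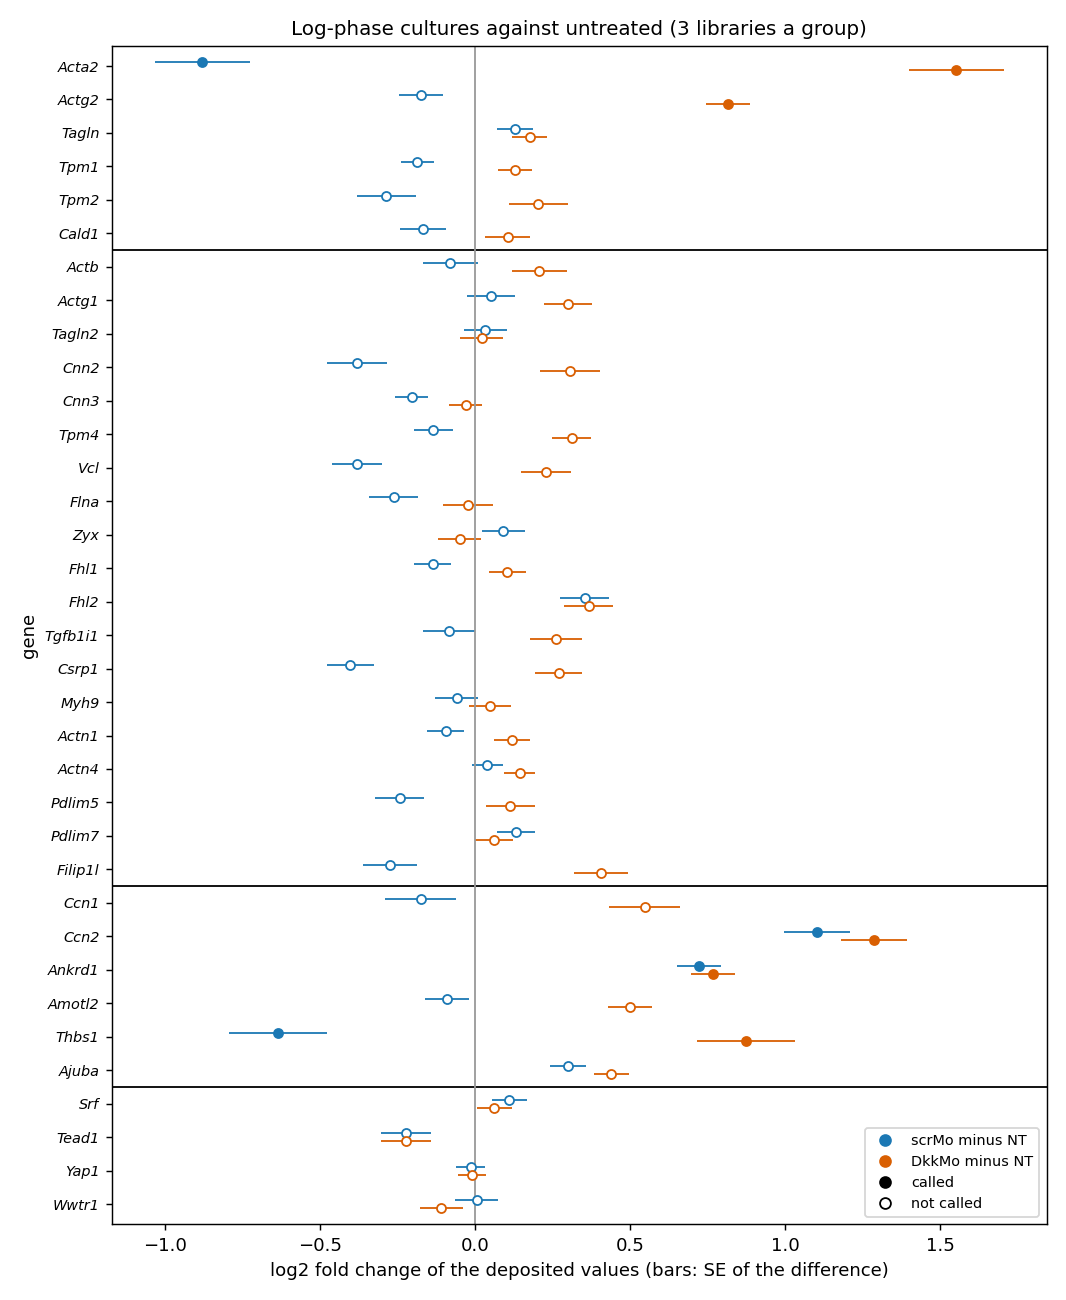
Log2 fold change of the deposited values (x axis, with the SE of the difference) of the 35 members in log phase, for scrMo minus NT in blue and DkkMo minus NT in orange, with filled points for called genes. Acta2 and Thbs1 lie on opposite sides of 0 for the 2 morpholinos, and Ccn2 and Ankrd1 lie to the right of 0 for both.

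The direct difference between DkkMo and scrMo in log phase, which is the one the set was proposed from, is given as a description. The choice of the set favours members higher with DkkMo here, so nothing is read from the count. It was 9 members past the thresholds, all higher with DkkMo, in a comparison where 1.97% of all genes were called and 1.66% were higher. The 9 were Acta2 (2.43), Thbs1 (1.51), Actg2 (0.99), Ccn1 (0.72), Cnn2 (0.69), Filip1l (0.68), Csrp1 (0.67), Vcl (0.61) and Amotl2 (0.59), as log2 fold changes. Filip1l encodes a filamin-binding protein, Csrp1 a LIM protein of actin bundles, and Vcl vinculin, which links integrins to actin. Ccn2 and Ankrd1 differed by 0.18 ± 0.11 (SE) and 0.05 ± 0.07 (SE) between the 2 morpholinos. Set beside NT, the DkkMo-scrMo differences of Cnn2, Csrp1 and Vcl divide into a lower scrMo level and a higher DkkMo level. Cnn2 was at -0.38 ± 0.10 (SE) with scrMo and 0.31 ± 0.10 (SE) with DkkMo, Csrp1 at -0.40 ± 0.08 (SE) and 0.27 ± 0.08 (SE), and Vcl at -0.38 ± 0.08 (SE) and 0.23 ± 0.08 (SE).

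Several members, Acta2 foremost, were lower under nutritional stress than in log phase. The number called was larger in DkkMo cultures, whose log-phase libraries were in view when the set was chosen. The change under DkkMo was set against that under scrMo only as a description, given below. Neither was tested against the change in NT. Between stressed and log-phase cultures, 11 of 35 members were called lower and 1 higher without a morpholino, where 9.9% of all genes were called lower and 8.22% higher. With scrMo the counts were 9 lower and 1 higher, against 6.28% and 4.38%. With DkkMo they were 22 lower and 2 higher, against 10.2% and 6.24%. The median log2 fold change of the 35 members was -0.20 in NT, -0.32 with scrMo and -0.73 with DkkMo, while the median of all genes was -0.014, -0.0060 and -0.011. When libraries were instead centred on their median, which moves every difference by 0.16 in NT, 0.07 with scrMo and 0.17 with DkkMo, the calls were 6 lower and 4 higher in NT, 5 and 2 with scrMo, and 17 and 2 with DkkMo. Acta2, Actg2, Filip1l and Thbs1 were called lower in all 3 comparisons, 12 members in a pair of them, and 6 (Actb, Tpm4, Zyx, Ccn1, Amotl2 and Ajuba) only in one, each time that of the DkkMo cultures. With scrMo, the calls of Actg2, Ccn2, Filip1l and Thbs1 were lost without log-phase scrMo library 1 or 3, depending on the gene. Growth state, density and medium changed together between these conditions and cannot be told apart.

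Of the 35 members, Acta2 fell by the most in each treatment. It changed by -2.55 ± 0.15 (SE, adjusted p = 2.99e-11) in NT, -1.36 ± 0.15 (SE, adjusted p = 3.98e-07) with scrMo and -3.72 ± 0.15 (SE, adjusted p = 3.64e-13) with DkkMo. In normalized counts the log-phase mean was 46.6 times the stressed mean in NT, 8.22 times with scrMo and 54.2 times with DkkMo, larger ratios than on the deposited scale which compresses low counts. Actg2 changed by -0.82 ± 0.07 (SE, adjusted p = 5.23e-09), -0.61 ± 0.07 (SE, adjusted p = 5.86e-07) and -1.44 ± 0.07 (SE, adjusted p = 2.96e-12) in the same order. Tpm2 libraries went from 3823, 4018 and 3924 to 1546, 1695 and 1542 in NT, from 3861, 2766 and 2959 to 2348, 2490.0 and 2443 with scrMo and from 4767, 5184 and 3823 to 2021, 1956 and 2076 with DkkMo. Tpm2 was called lower in NT, at -1.17 ± 0.10 (SE), and with DkkMo, at -1.07 ± 0.10 (SE). So was Tpm1, at -0.64 ± 0.05 (SE) and -1.02 ± 0.05 (SE), and Cald1, at -0.85 ± 0.07 (SE) and -0.80 ± 0.07 (SE). With scrMo, Tpm1 was at -0.42, Tpm2 at -0.35 and Cald1 at -0.26, and none was called. Tagln was an exception, with 80.4, 91.3 and 91.0 normalized counts in stressed NT, 101, 73.3 and 73.9 with scrMo and 97.4, 110.3 and 128 with DkkMo, each group mean above that of log phase but with differences of 0.28, 0.12 and 0.24 that were not called. On log2 of the normalized count plus 1, and by voom, the rise of Tagln was called in NT (0.88 and 0.72) and with DkkMo (0.64 and 0.66).

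Among stress fibre genes, 5 of 19 were called lower in NT, 4 with scrMo and 11 with DkkMo. Over all genes the shares called lower were 9.9%, 6.28% and 10.2% in the same order. The log-phase DkkMo and scrMo libraries were in view when the set was chosen. Cnn2 stood at 4009, 4376 and 3998 normalized counts in stressed NT, 5734, 5687 and 5571 with scrMo and 4523, 4145 and 4224 with DkkMo, all below every log-phase library. Its changes were -1.11 ± 0.10 (SE, adjusted p = 6.12e-09) in NT, -0.30 ± 0.10 (SE, adjusted p = 0.0119) with scrMo and -1.37 ± 0.10 (SE, adjusted p = 4.26e-10) with DkkMo. Flna, which encodes the actin cross-linker filamin A, went from 38872, 40890.2 and 41239 in log phase to 27695, 24817 and 27794 under stress in NT. It went from 31691, 33284 and 35863 to 31549.9, 33394 and 33843 with scrMo, and from 34745, 45506 and 39516 to 22325, 22108 and 22208 with DkkMo. The scrMo libraries of the 2 conditions overlapped, and the other pairs did not. Its changes were -0.59 ± 0.08 (SE, adjusted p = 2.38e-06), -0.03 ± 0.08 (SE, adjusted p = 0.782) and -0.83 ± 0.08 (SE, adjusted p = 2.65e-08). Actb, often used as a reference transcript, was lower with DkkMo at -0.90 ± 0.09 (SE, adjusted p = 4.56e-08), with stressed libraries at 32887, 29287 and 29719 against 58172, 63649 and 51002 in log phase. Under stress it was at 42573, 43006 and 41236 in NT and at 34979.5, 31291 and 32496 with scrMo, and neither change was called. Actg1 was at 27083, 28111 and 27739.7 in NT, 29469.8, 29725 and 29463 with scrMo and 25330.4, 22294 and 22514 with DkkMo and was called in none of the 3. Tagln2, a transgelin relative, went from 9757, 7878 and 8101 to 4826, 4558 and 4844 with scrMo and from 9238, 8296 and 7925 to 4207, 4025 and 3918 with DkkMo, changes of -0.81 ± 0.07 (SE, adjusted p = 8.62e-09) and -1.01 ± 0.07 (SE, adjusted p = 2.02e-10). Beside Actb, Cnn2, Flna and Tagln2, the alpha-actinin Actn4, the focal adhesion protein zyxin (Zyx), Fhl2, Tgfb1i1 (Hic-5), Csrp1, Tpm4 and Filip1l made up the rest of the 11 in DkkMo cultures, with log2 fold changes from -0.90 (Fhl2) to -0.73 (Zyx).

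The genes of 2 PDZ-LIM proteins, which tether other proteins to actin filaments, ran the other way. Pdlim7 had 2245, 2279 and 2161 normalized counts in log-phase NT and 5149, 5483 and 5349 under stress, and rose by 1.16 ± 0.06 (SE, adjusted p = 4.12e-12). With DkkMo it rose by 0.70 ± 0.06 (SE, adjusted p = 5.90e-09), and with scrMo the difference of 0.57 ± 0.06 (SE) fell just short of 1.5-fold. Pdlim5 went from 1382, 1587 and 1785 to 3837, 4035 and 4053 with scrMo, a rise of 1.20 ± 0.08 (SE, adjusted p = 3.43e-10), and from 1813, 2275 and 2230.3 to 3329.8, 3720.3 and 3783 with DkkMo, a rise of 0.71 ± 0.08 (SE, adjusted p = 2.13e-07). In NT its difference was 0.43 ± 0.08 (SE) and was not called. These were the 2 members called higher under stress in any treatment.

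All 6 YAP targets that were measured were called lower under stress in DkkMo cultures, 3 with scrMo (Ccn2, Ankrd1 and Thbs1) and 1 in NT (Thbs1), beside 10.2%, 6.28% and 9.9% of all genes called lower. The set was chosen with the log-phase DkkMo and scrMo libraries in view, which favours lower values under stress with DkkMo. Nothing is read from the larger count there. Thbs1 changed by -0.81 ± 0.16 (SE, adjusted p = 1.73e-04) in NT, -0.61 ± 0.16 (SE, adjusted p = 0.00296) with scrMo and -1.94 ± 0.16 (SE, adjusted p = 2.92e-09) with DkkMo. Ankrd1 changed by -1.15 ± 0.07 (SE, adjusted p = 1.23e-10) with scrMo and -1.21 ± 0.07 (SE, adjusted p = 3.13e-11) with DkkMo, and its stressed libraries overlapped between treatments, with means of 558 ± 13.7 in NT, 572 ± 47.3 with scrMo and 564 ± 42.5 with DkkMo (SD, n = 3). The stressed Ccn2 libraries overlapped too, with means of 1326 ± 110.5, 1293 ± 52.8 and 1399 ± 80.7. Ccn1 and Ccn2 were higher, not lower, in stressed NT cultures, by 0.51 ± 0.11 (SE) and 0.49 ± 0.11 (SE), which was short of a call but was called for both when libraries were centred on their median. Under stress Amotl2 stood at 4007, 4226 and 4386 in NT, 4288, 4119 and 4121 with scrMo and 4198, 4302 and 4819 with DkkMo, while Ajuba was at 1249, 1350.1 and 1320.0 in NT, 1284, 1342 and 1286 with scrMo and 1205, 1133 and 1154 with DkkMo. Both were called lower with DkkMo, at -0.63 ± 0.07 (SE, adjusted p = 2.52e-07) and -0.69 ± 0.06 (SE, adjusted p = 3.43e-09). With DkkMo, the calls of Ccn1, Ccn2, Amotl2, Ajuba and Zyx were lost when libraries were centred.

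Transcripts of the regulators changed by less than 1.5-fold. Yap1 stayed between 2907 and 3624 normalized counts over all 18 libraries, and none of the 4 regulators was called in any of the 9 comparisons between culture groups. Srf was 1995, 1961 and 2006 in stressed NT, above all log-phase libraries, a difference of 0.46 ± 0.06 (SE, adjusted p = 5.39e-07) that stayed under 1.5-fold and was called only after centring. With scrMo and DkkMo, stressed Srf libraries were at 1631, 1744 and 1639.5 and at 1596, 1375 and 1406. Wwtr1 was at 8226, 7939.9 and 8079.5 in stressed NT, 6607, 6128 and 6145 with scrMo and 7292, 7428 and 7425 with DkkMo, and its NT difference from log phase was 0.36 ± 0.07 (SE). Tead1 was at 5308, 5026 and 5240.3 in NT, 4242, 4235 and 4166 with scrMo and 4408, 4741 and 4667 with DkkMo. Protein amount and nuclear entry of these factors were not measured. Of the 35 members, 10 were called in none of the 9 comparisons, namely Tagln, Actg1, Cnn3, Fhl1, Myh9, Actn1 and the 4 regulators.

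**Figure D3:**
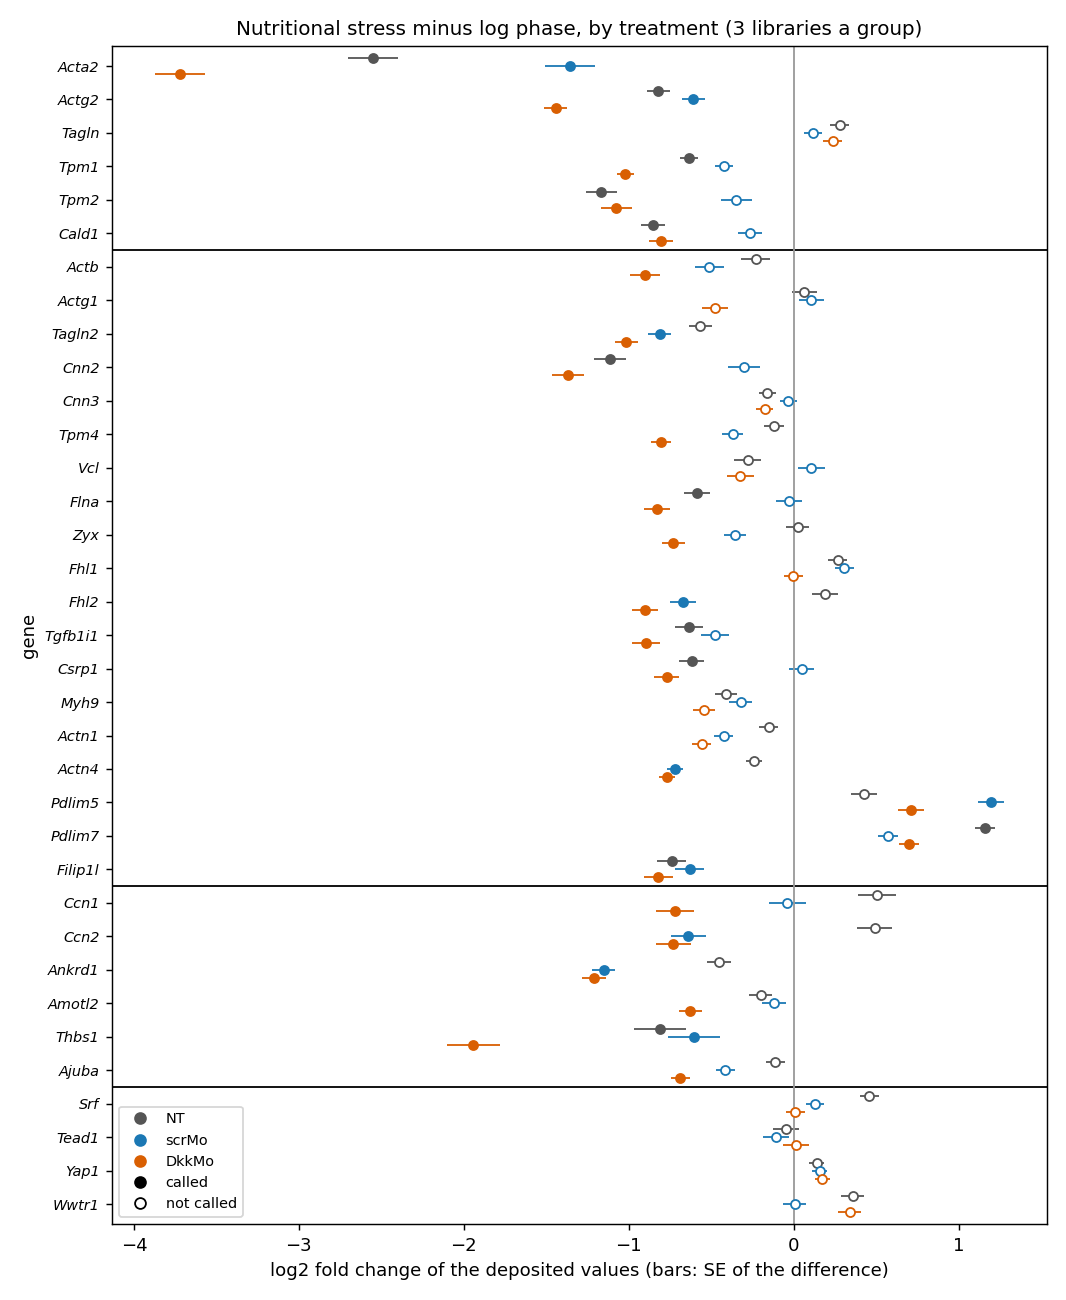
Log2 fold change of the deposited values between nutritional stress and log phase (x axis, with the SE of the difference) for the 35 members, in NT (grey), scrMo (blue) and DkkMo (orange) cultures, with filled points for called genes and lines between smooth-muscle-type, stress fibre, YAP target and regulator genes. Most filled points lie left of 0, 22 of them in the DkkMo cultures, and Pdlim5 and Pdlim7 lie to the right. The log-phase DkkMo libraries were in view when the set was chosen.

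Within stressed cultures few members differed by over 1.5-fold between treatments. An adjusted p under 0.05 was reached by 19 of 35 with scrMo against NT and 18 with DkkMo against NT, against 46.8% and 41.7% of all genes. No member was called between DkkMo and scrMo, where 1% of all genes were called by limma. At an unadjusted p under 0.05 there were 16 of 35, against 32.6% of all genes. Of the members with an adjusted p under 0.05, 3 were higher and 8 lower, against 9.97% and 10.9% of all genes. Voom, the version of limma for reads, called 1 member, Filip1l, at 0.66. Filip1l was at 929, 809 and 735 with scrMo and 1177, 1357 and 1253 with DkkMo. Against NT, Ccn1 was lower with scrMo at -0.72 ± 0.11 (SE, adjusted p = 4.75e-05) and with DkkMo at -0.68 ± 0.11 (SE, adjusted p = 1.20e-04). Its libraries were 19388, 18697 and 19102 in NT and at most 12459.8 normalized counts with either morpholino. Zyx was lower with DkkMo at -0.80 ± 0.07 (SE, adjusted p = 8.22e-08), with libraries at 5939, 5885 and 6087 in NT, 4827, 4729.8 and 4951 with scrMo and 3420.1, 3163 and 3312 with DkkMo. Fhl2, a cofactor of several transcription factors, was at 3814, 3814 and 3769.5 in NT, 2857, 2491 and 2452 with scrMo and 2395, 2038 and 2146 with DkkMo, a DkkMo difference of -0.72 ± 0.08 (SE, adjusted p = 1.08e-06). These made 1 call lower of 35 with scrMo and 3 with DkkMo, against 2.54% and 1.54% of all genes called lower and 4.43% and 2.66% called in either direction. Acta2 held 2.95 times the NT mean with DkkMo and 2.52 times with scrMo in normalized counts, but on the deposited scale the differences of 0.38 ± 0.15 (SE, adjusted p = 0.0528) and 0.32 ± 0.15 (SE, adjusted p = 0.101) were not called. On log2 of the normalized count plus 1 they were 1.52 and 1.31 and both were called, and voom called the DkkMo difference, at 1.72. Under voom the Ccn1 difference with DkkMo, at -0.53, was not called. On these scales some members were called higher than NT. With scrMo, 2 were higher and 1 lower on either scale, with Acta2 and Tpm2 higher on log2 counts, and Tpm2 and Pdlim5 by voom. With DkkMo, 2 were higher and 3 lower on log2 counts, with Acta2 and Actg2 higher, and 3 higher and 2 lower by voom, with Acta2, Actg2 and Pdlim5 higher.

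The differences between DkkMo and scrMo in the 2 conditions are set side by side as a description. The set was chosen with the log-phase difference in view, which favours a smaller value under stress, so nothing is read from the direction or from the count of 10 members past the thresholds, all lower, beside 2.83% of all genes. Acta2 went from 2.43 in log phase to 0.07 under stress, Thbs1 from 1.51 to 0.17 and Actg2 from 0.99 to 0.15. Flna went from 0.24 to -0.56, Cnn2 from 0.69 to -0.38 and Csrp1 from 0.67 to -0.15, changing sign. The stressed scrMo libraries, with their high mitochondrial ribosomal RNA, enter each of these values.

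**Figure D4:**
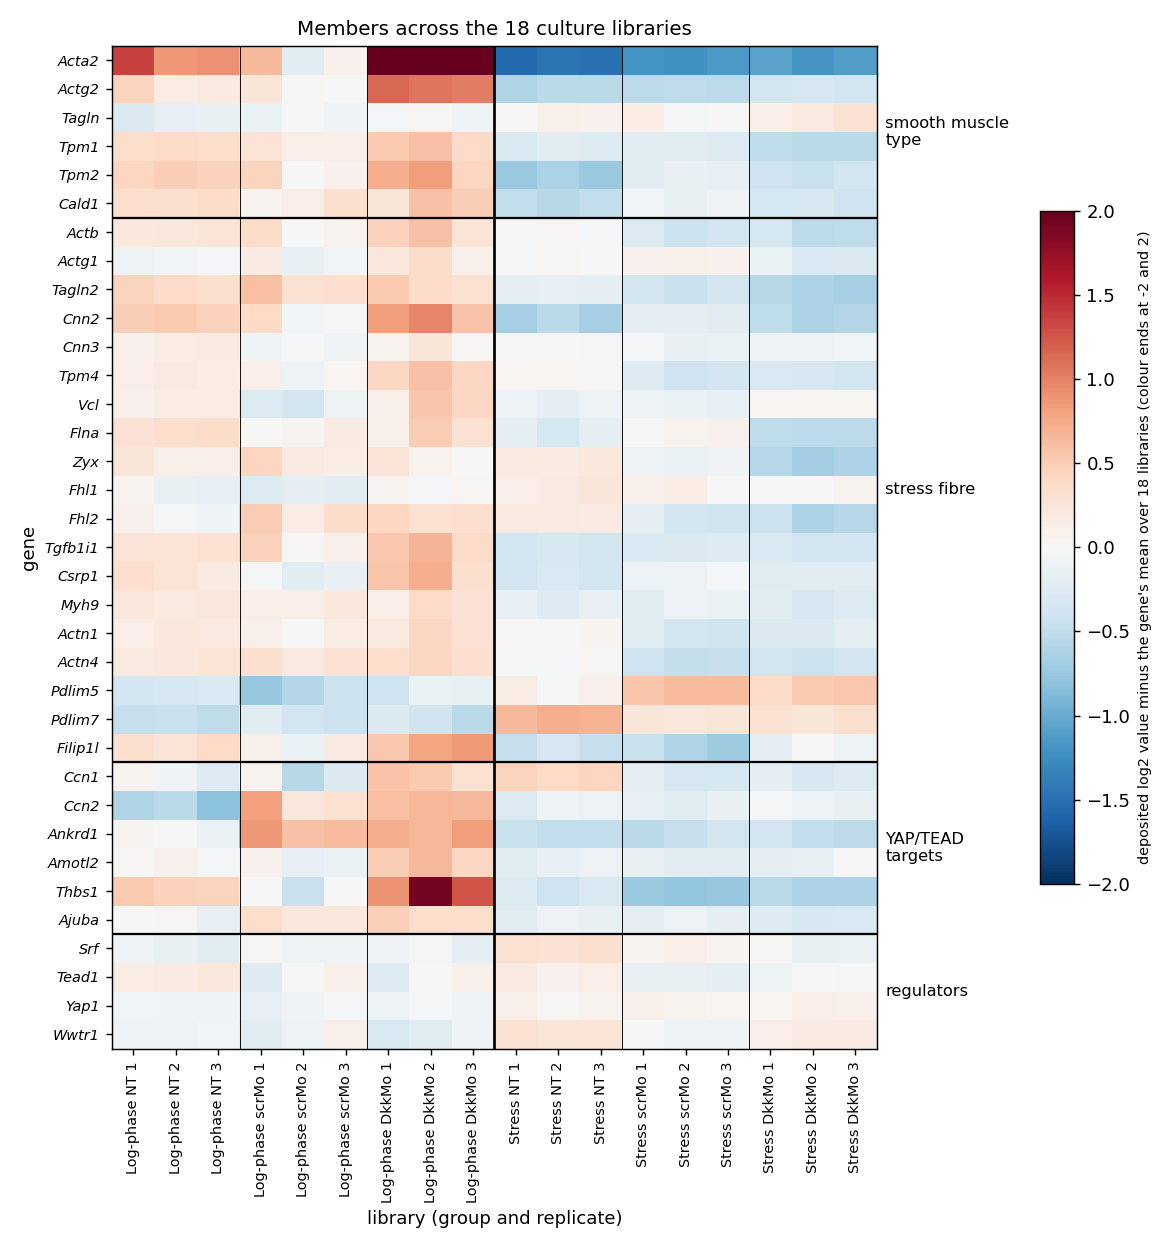
Deposited log2 value of each of the 35 members (rows, by role) in each of the 18 culture libraries (columns), minus the mean of the gene over all libraries, with red above and blue below it and colours that end at -2 and 2. Acta2 shows the widest range, and the 4 regulators at the bottom stay close to 0.

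Related genes from lists set up alongside the members were followed in the same comparisons, and no list was tested as a set. Over all genes, 9.9% were called lower and 8.22% higher under stress in NT, 6.28% and 4.38% with scrMo, and 10.2% and 6.24% with DkkMo. In log phase, 0.827% were called with DkkMo against NT and 2.45% with scrMo, and under stress 2.66% and 4.43%. The Hippo counts between stress and log phase lie near these shares. Of 22 further contractile or SRF-linked genes measured, 5 were called lower and none higher under stress in NT, 5 and 1 with scrMo, and 11 and 1 with DkkMo, with medians of -0.26, -0.32 and -0.61. Fhl3 (-1.08, -1.21 and -1.27) and Pdlim2 (-1.21, -1.04 and -1.53) were called lower in all 3. Pdlim1 (-1.24) was the lowest with scrMo, Synpo rose with scrMo (0.84), and Myh10, nonmuscle myosin IIB, rose with DkkMo (0.95). In log phase none of the 22 was called with DkkMo against NT, and Lima1 alone was called, lower, with scrMo (-0.61). Under stress, Mylk, myosin light chain kinase (0.82), and Myh10 (0.67) were higher with DkkMo than in NT. Of 15 further YAP targets, 5 were called lower and 1 higher in NT, 4 lower with scrMo and 5 lower with DkkMo under stress, and the receptor tyrosine kinase Axl was lower in each (-0.73, -1.08 and -1.29). Ccdc80 fell by the most in NT (-1.58) and with DkkMo (-1.66), and the call higher was Gadd45a (0.71). None of the 15 was called against NT in log phase, and under stress Crim1 was higher than NT with scrMo (0.92) and DkkMo (0.71). Of 3 SRF cofactors measured, Mrtfa was called lower under stress in all 3 treatments (-0.62, -0.68 and -0.94) and was the only one called. Of 18 Hippo pathway genes, 2 were called higher and none lower in NT, none and 1 with scrMo, and 2 and 1 with DkkMo. Map4k4 was higher in NT (0.82) and with DkkMo (0.77), and Wwc1 lower with scrMo (-1.16). Against NT in log phase, Wwc1 was higher with scrMo (0.70) and Vgll3 with DkkMo (0.60).

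Set beside the promoter windows, calls were found with and without the motifs. Of 7 measured members with a CArG box, 3 (Cnn2, Fhl2 and Filip1l) were called lower under stress in DkkMo cultures, and of 21 with a window but no CArG box, 14 were. Of 13 members with GGAATG, 10 were called lower, and of 15 without, 7. Acta2 holds no CArG box in the 250 bases searched, which says only that the letters are not in this window. That window lies largely inside the GENCODE gene, with 33 bases before it. No test was made of these counts.

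In tumours 22 of the 38 genes were measured, and the spread between animals was far larger than in culture. A tumour holds host stroma and vessels beside MOSJ-Dkk1 cells, and fewer cells of a type and less RNA per cell cannot be told apart. Normalized counts of Acta2 were 0, 0.31, 38.6 and 255 in NT tumours, 4.34, 0, 199.6 and 10.6 with DRB, 56.5, 0, 0 and 3.62 with DkkMo and 152, 0, 37.7 and 29.3 with the Combination. Tagln had 30.8, 196, 0 and 1534 in NT tumours, 551, 156, 33.3 and 0.96 with DRB, 50.0, 0, 28.4 and 475 with DkkMo and 827, 1742, 0 and 17.9 with the Combination. For both genes each group overlapped every other. Myl9, a regulatory light chain of smooth muscle myosin, had 642, 1751, 64.7 and 1353 in NT tumours, 626, 111, 505 and 1466 with DRB, 2609, 1999, 1119 and 1513 with DkkMo and 723, 5288, 2231 and 1135 with the Combination. In all, 9 members had a tumour with 0 reads, among them Actg1 with 7 such tumours, an actin that every cell uses. A count of 0 reads in these fixed tumours therefore need not mean that the gene was silent. Between DkkMo and NT tumours none of the 22 was called, and none of the 12595 genes by limma, and none of the 22 by voom. At an unadjusted p under 0.05 there were 3 of 22, against 12.3% of all genes. Without the second NT tumour, Myh9 and Tpm4 were called lower.

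Between Combination and DRB tumours 4 of 22 members were called, all lower, where 6.92% of all genes were called lower and the median gene was at -0.71. The DRB libraries held 85.3 to 106 megareads on listed genes, with size factors (the divisors that give normalized counts) of 0.448 to 1.04. The Combination libraries held 28.3 to 41.1 megareads, with size factors of 0.975 to 1.40. The part of this difference in the lower members was not tested. Tpm4 had 140756, 32831, 18984 and 42374 normalized counts with DRB and 1805, 961, 687 and 233 with the Combination, a log2 difference of -5.61 ± 0.82 (SE, adjusted p = 6.32e-04). Filip1l had 264431, 72551, 29090.1 and 8174 normalized counts with DRB and 794, 215, 126 and 5.71 with the Combination, a difference of -7.27 ± 1.57 (SE, adjusted p = 0.0116). Myh9, nonmuscle myosin IIA, had 75126, 31856, 12464 and 2767 normalized counts with DRB and 0, 0, 0 and 223 with the Combination, a difference of -7.28 ± 1.65 (SE, adjusted p = 0.0146). Tpm1 had 5493, 952, 2526 and 1468 normalized counts with DRB and 0, 167, 46.4 and 5.00 with the Combination, a difference of -4.06 ± 1.07 (SE, adjusted p = 0.0289). The groups did not overlap in any of the 4, as in 20.4% of all genes. Yap1 overlapped, with 965, 5458, 1794 and 614 normalized counts with DRB and 1017, 644, 554 and 326 with the Combination and a difference of -1.24 ± 0.85 (SE, adjusted p = 0.368). Without the first DRB tumour 1 of the 4 was called, without the fourth DRB tumour 7 members were, and without the second Combination tumour 2 were. Macrophage markers, 4 of 8 measured, summed to 12127 to 222033 normalized counts with DRB and 4259.7 to 6826 with the Combination, and osteoblast markers, 8 of 10 measured, to 113526 to 1629920.0 and 20834 to 105518. Smooth muscle and pericyte markers, 5 of 9 measured, had a higher mean with the Combination, at 5015 to 16792 with DRB and 14082 to 20211 with the Combination. Fibroblast markers, 4 of 7 measured, overlapped, at 9613 to 20109 and 11237 to 15912. So did the 8 endothelial markers, at 26694.5 to 114246 and 28034 to 35787. The part of these cell types in the lower members was not tested. Centring libraries on their median moved all differences by 1.04 and left 3 calls, without Tpm1. Voom on the recovered reads called Tpm4 and Actg1 lower and 4 members, Myl9, Cald1, Fhl2 and Pdlim5, higher. Voom scaled libraries by their total reads and not by the size factors. On log2 of the normalized count plus 1, which kept the size factors, 3 members were called lower and none higher. The calls in tumours thus differed between settings. Of 21 other contractile genes 2 were called lower and 1 higher, led by Myh10 (-5.45) and Synpo (2.22), and of 11 other YAP targets 3 were called lower, led by Crim1 (-3.19).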

How the data were processed

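RNA was measured by poly-A RNA sequencing in 18 culture libraries and 16 tumour libraries. The deposited log2 values are variance-stabilised counts, made by the authors separately for cultures and tumours. Per the labels, reads were aligned with HISAT2 2.1.0 to GRCm38, sorted with SAMtools 1.9, counted with featureCounts of Subread 2.0.0 and transformed with DESeq2, and StringTie is also listed. Strandedness, the treatment of multiply mapped reads and the gene filter are not given in the sources used here. The transformation compresses differences at low counts. Reversing it gave whole reads for 100% of the low culture values checked and at least 99.98% of the tumour values (tolerance 0.05 of a read). Dividing these reads by the size factor of their library gave the normalized counts printed. Total reads per library come from the same reversal.

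Groups were compared with limma 3.58.1 (R 4.3.3) on the deposited values, with a mean-variance trend, 1 mean per group and all libraries of a table in one model. Genes had to exceed the table's floor in 3 or more culture libraries, or 4 or more tumours, and 14 culture rows with a spread over 6 within a group were set aside. P-values were adjusted by Benjamini and Hochberg over 16562 culture or 12595 tumour genes. Called means adjusted p under 0.05 and over 1.5-fold. Comparisons that share a group share its libraries and are not independent. The fit was tested on simulated data. The members, the other gene lists and the tests were chosen with earlier results of these data known. Values in every library were given for the smooth-muscle-type genes, the cytoplasmic actins, the YAP targets, the regulators, and up to 3 called members with the largest rise and fall of each comparison. Other genes given per library (Cnn2 in log phase, Flna, Zyx and Fhl2 among them) serve the comparison beside them. Alternatives covered filters, the samples fitted, the trend, centring, log2 of the normalized count plus 1, thresholds, voom on recovered reads, a replicate block and leaving out each library. With voom, libraries were scaled by their total recovered reads and not by the size factors. Gene positions are from GENCODE M21, which has the GRCm38 build of the study. Figures were drawn with Matplotlib 3.10.9. Exact tests of single values were not used, since 3 against 3 libraries cannot go below p = 0.1.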

Additional observations from a re-analysis of the deposited data

Results flagged for a closer look

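For 10 members the difference between DkkMo and scrMo under stress is set against that in log phase, as a description. The value, stress minus log phase on the log2 scale, was -2.365 for Acta2, -0.8351 for Actg2, -0.5986 for Tpm1, -0.7264 for Tpm2, -0.5852 for Actg1, -1.062 for Cnn2, -0.8006 for Flna, -0.8174 for Csrp1, -0.6821 for Ccn1 and -1.337 for Thbs1. These members were picked out by the thresholds of the model over all genes, but the set was chosen with the log-phase difference in view, which favours negative values, so nothing is read from the direction or the count. Mitochondrial ribosomal RNA was highest in the stressed scrMo libraries, and its part in these values was not tested.

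Among 28 groups of 4 tumours examined in 7 genes, 1 held a tumour far from the others. Myh9 was at 222.8 normalized counts in Combination tumour 4 and at 0 in the other 3. Chance marks about 5% of such groups where values are continuous. That share does not hold for Myh9, where 3 tumours tie at 0, so nothing is read from this mark.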

How the results depend on the processing

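Counts of called members kept within 1.5 times of the reported ones in most settings, and no called member changed direction in any of the 10 alternative settings or the 34 fits that left out a library. With only genes above the median mean, 3 members were called for log DkkMo minus NT. With only the compared groups in the model, 7 were called for Combination minus DRB. On log2 of the normalized count plus 1, stressed DkkMo minus scrMo had 1, scrMo minus NT 3 and DkkMo minus NT 5 called members, and voom gave the same counts, 1, 3 and 5. Both also called Tagln2 and Ankrd1 lower in NT stress minus log, and Fhl1 and Pdlim7 higher in scrMo stress minus log. For Combination minus DRB, voom called 4 members higher and 2 lower against 4 lower as reported. Centring split log scrMo minus NT into 2 higher and 1 lower. With adjusted p alone, the counts were 21 for log DkkMo minus scrMo, 16 for log scrMo minus NT, 13 for log DkkMo minus NT, 11, 19 and 18 for the stressed comparisons in the order above, 30 for stress minus log in NT, 25 with scrMo, and 21 for the interaction. Leaving out 1 library gave 23 to 26 calls for DkkMo stress minus log, 11 to 12 for NT, 8 to 10 for scrMo, 6 to 10 for log DkkMo minus scrMo, 3 to 4 for log scrMo minus NT, 5 to 6 for log DkkMo minus NT, and 7 to 11 for the interaction. For stressed DkkMo minus scrMo it gave 0 to 1, with Flna called without scrMo replicate 1. For tumours it gave 0 to 2 for DkkMo minus NT, with Myh9 and Tpm4 called without NT replicate 2, and 1 to 7 for Combination minus DRB, with 1 without DRB replicate 1, 7 without DRB replicate 4 and 2 without Combination replicate 2. Single libraries also ended the calls of Thbs1 for log scrMo minus NT (without scrMo replicate 2), of Flna and Csrp1 for NT stress minus log, of Actg2, Ccn2, Filip1l and Thbs1 for scrMo stress minus log (without log-phase scrMo replicate 1 or 3) and of Amotl2 for DkkMo stress minus log (without log-phase DkkMo replicate 2). The causes were not tested.

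Title numbers paired the samples only in part. Log-phase DkkMo and scrMo libraries numbered 1 and 3 shared deviations from their group means, and those numbered 2 did not. Deviations of same-numbered libraries correlated at 0.624, -0.0487 and 0.570 between log DkkMo and scrMo, and between -0.0586 and 0.350 for other pairs of groups. With a replicate block every count was as reported, for example 9 for log DkkMo minus scrMo, 4 for log scrMo minus NT, 5 for log DkkMo minus NT, 0 for stressed DkkMo minus scrMo, 10 for scrMo stress minus log, 24 for DkkMo stress minus log and 10 for the interaction. For comparisons with stressed NT, in which 2 libraries carry the same number, and for tumours, whose labels carry no number that pairs, no block could be fitted.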
